A study of Mus musculus with 20 samples.

Results

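A group of 8 genes of corticosteroid signalling were followed in the brain, namely both corticosteroid receptors, *Nr3c1* and *Nr3c2*, the enzymes of local steroid activation, *Hsd11b1* and *H6pd*, the receptor co-chaperones, *Fkbp4* and *Ptges3*, and the coactivators, *Ncoa1* and *Ncoa2*. They were chosen by name and role, without use of their measured values in the rule, and they are 8 of the 17211 genes in the table. RNA of the brain was sequenced from 10 C57BL/6 and 10 *Winnie* mice, 1 library a mouse by the labels, all aged 14 weeks. *Winnie* mice carry a missense mutation in *Muc2*, the gene of the main secreted intestinal mucin, in all their cells, and develop spontaneous chronic colitis, so effects of the mutation and of the colitis cannot be told apart. C57BL/6 mice, described as littermates from one breeding colony, served as controls, and the mice received no treatment before they were killed with pentobarbitone. Both sexes are labelled in each group. The study describes fewer brains in each group than are labelled, without saying which, and all labelled brains were used.

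Corticosterone, the main glucocorticoid of mice, acts in the brain through the glucocorticoid receptor and the mineralocorticoid receptor, which share the same DNA response elements but differ in affinity for the hormone. An unliganded receptor is held in a binding-competent state by HSP90 and its co-chaperones, is activated by hormone that comes from blood or is regenerated inside the cell, and then recruits coactivators to its target genes. The mineralocorticoid receptor is concentrated in limbic neurons, above all in the hippocampus, whereas the glucocorticoid receptor is found in most brain cells.

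Library depth ranged from 16540303 to 23923769 reads, and 1 read was worth 0.0418 to 0.0605 CPM (a gene's reads scaled to the same total in every brain), so that every one of the 8 genes rested on at least 147 reads in each brain. *Xist*, the RNA of the inactive X chromosome, was present in 11 brains and the Y-linked *Ddx3y* in the other 9, and this RNA went against the labelled sex in 9 of 10 C57BL/6 brains and in 0 of 10 *Winnie* brains. Both groups held brains of either kind by RNA, 6 with *Xist* and 4 with *Ddx3y* in C57BL/6 and 5 of each in *Winnie*, and the values of the main results are also given within each kind. The genotype labels have no comparable check here, since the CPM of a gene does not show a missense mutation, and *Muc2* was not analysed. The library numbers of the samples run from 1 to 10 in C57BL/6 and from 11 to 20 in *Winnie*, so library order and genotype cannot be told apart.

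Both co-chaperones were lower in *Winnie* brains, while neither receptor, neither activating enzyme and neither coactivator passed the test. Called at a false discovery rate (FDR, the Benjamini-Hochberg adjusted p of limma over all 17211 genes) under 0.05, 2 of the 8 genes were lower and 0 were higher. Among all genes, 434 were called, or 2.52%, of which 173 were lower (1.01%) and 261 higher (1.52%). At the stricter threshold of the study's methods, an FDR under 0.001 with at least a 1.5-fold change, limma called 0 genes of the table (0%), edgeR 0 and DESeq2 10, while 3030 genes had an unadjusted limma p under 0.05. The median log2 fold change of the 8 genes was -0.055, beside 0.0022 over all genes, with 3 above 0 and 5 below. In whole tissue, fewer cells that hold a transcript and less of it per cell cannot be told apart.

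**Figure D1:**
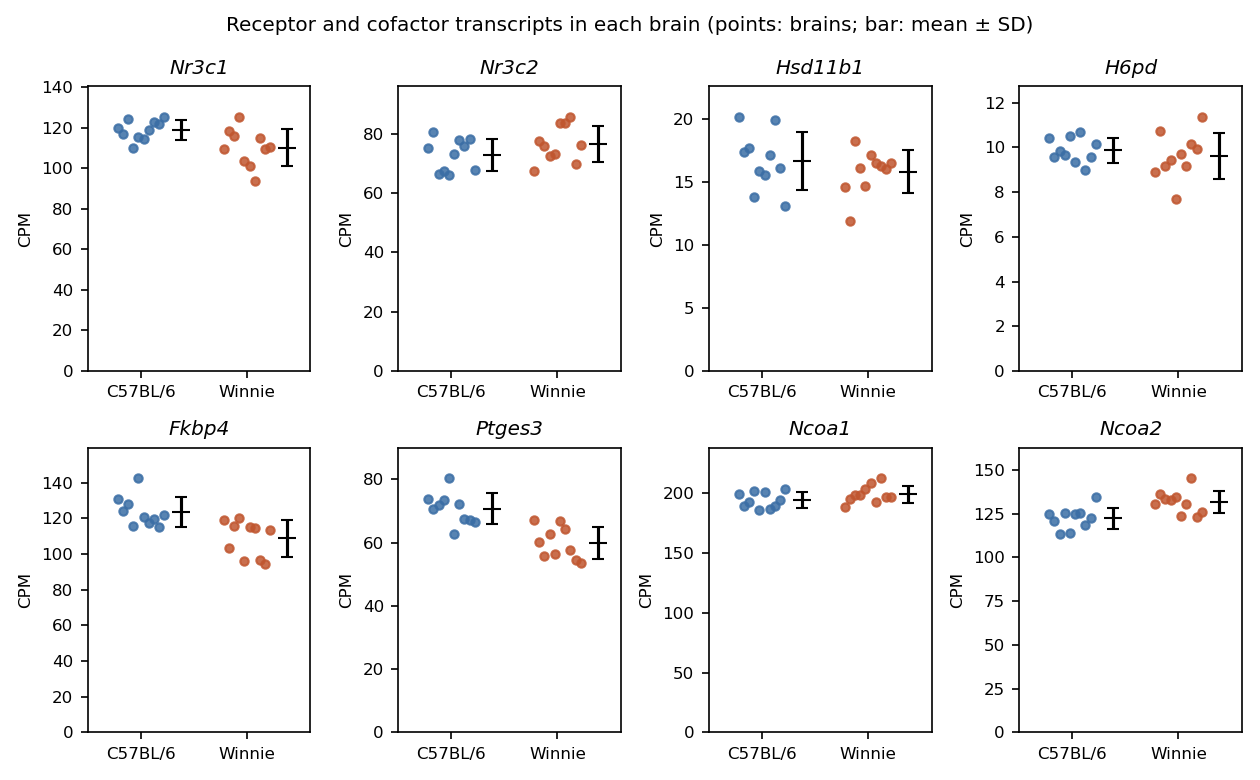
Each panel plots 1 gene, with CPM on the vertical axis from 0, a point for each of the 10 C57BL/6 (blue) and 10 *Winnie* (orange) brains, and the mean ± SD as a black bar. All 10 *Winnie* brains lie below the C57BL/6 median for *Fkbp4* and *Ptges3*, whereas the points of the other 6 genes overlap more.

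Per kilobase of merged exons, the co-chaperones were the most abundant of the 8 transcripts and the activating enzymes the least. Over the 20 brains, *Fkbp4* was at 41.6 ± 4.24 CPM per kilobase (SD, n = 20) and *Ptges3* at 29.4 ± 3.31. *Ncoa1* followed at 22.9 ± 0.831, *Nr3c1* at 14.9 ± 1.09, *Nr3c2* at 11.5 ± 0.928 and *Ncoa2* at 8.12 ± 0.495. *Hsd11b1* was at 3.82 ± 0.477 and *H6pd* at 1.86 ± 0.155. Each gene exceeded the next in all 20 brains, except that *Nr3c1* exceeded *Nr3c2* in 19. Across brains, the ranges of *Fkbp4* and *Ptges3*, of *Ptges3* and *Ncoa1*, and of *Nr3c1* and *Nr3c2* overlapped, and those of the other neighbours did not. These levels assume that the exons merged over all annotated transcripts stand for the length read, which for *Ncoa2* is 15642 bases and for *Ptges3* 2217.

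The receptors moved in opposite directions by small amounts, and neither passed the test. *Nr3c1* (ENSMUSG00000024431, GRCm38 chromosome 18, 39410545 to 39519421, minus strand) encodes the glucocorticoid receptor. Its lowest, median and highest values were 110.3, 119.6 and 125.7 CPM in C57BL/6 brains and 94.0, 110.2 and 125.2 CPM in *Winnie* brains. Of the 10 *Winnie* brains, 9 were below the C57BL/6 median and 5 below every C57BL/6 brain, although the highest values of the groups were alike. The means were 119 ± 4.83 and 110.3 ± 9.04 CPM (SD, n = 10 each), a log2 fold change of -0.11 with a 95% confidence interval from -0.20 to -0.03 and a limma FDR of 0.137.

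*Nr3c2* (ENSMUSG00000031618, chromosome 8, 76899442 to 77245012, plus strand) encodes the mineralocorticoid receptor. Its lowest, median and highest values were 66.0, 74.2 and 80.6 CPM in C57BL/6 and 67.4, 76.0 and 85.9 CPM in *Winnie*. The groups overlapped over most of their range, with 3 *Winnie* brains above every C57BL/6 brain. The log2 fold change was 0.07, with an interval from -0.03 to 0.17 and a limma FDR of 0.461. An antisense gene, *Gm10649*, overlaps its exons and was listed at a mean of 2.37 CPM. The strandedness of the counting is not given in the sources used here, so reads of the pair may not be fully separated.

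The ratio of *Nr3c2* to *Nr3c1* within a brain was higher in *Winnie*. In C57BL/6 its lowest, median and highest values were 0.536, 0.621 and 0.689, and in *Winnie* 0.580, 0.672 and 0.890, on the CPM scale without a correction for length. In *Winnie*, 8 brains lay above the C57BL/6 median and 4 above every C57BL/6 brain, and the means were 0.612 ± 0.0498 and 0.700 ± 0.0965 (SD, n = 10 each). The difference of the log2 ratio was 0.19 (permutation test, 100000 resamples, two-sided p = 0.0153), and it ranged from 0.15 to 0.21 when each brain was left out in turn. This p is not adjusted, unlike the FDR given for each receptor. The same permutation test on single genes gave p = 0.0115 for *Nr3c1* and p = 0.170 for *Nr3c2*, so the ratio is no stronger result than *Nr3c1* alone.

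The difference in this ratio was small among brains with *Xist* RNA. There the log2 ratio differed by 0.06 (exact permutation p = 0.372), with means of 0.617 ± 0.0416 in C57BL/6 (n = 6) and 0.642 ± 0.0479 in *Winnie* (n = 5). Among brains with *Ddx3y* RNA it differed by 0.32 (exact permutation p = 0.0476), with means of 0.606 ± 0.0668 (n = 4) and 0.758 ± 0.102 (n = 5). The gap between these values, 0.26, did not pass an exact permutation test of the difference itself (p = 0.0680 over 52920 arrangements). These splits were made after the data had been seen.

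**Figure D2:**
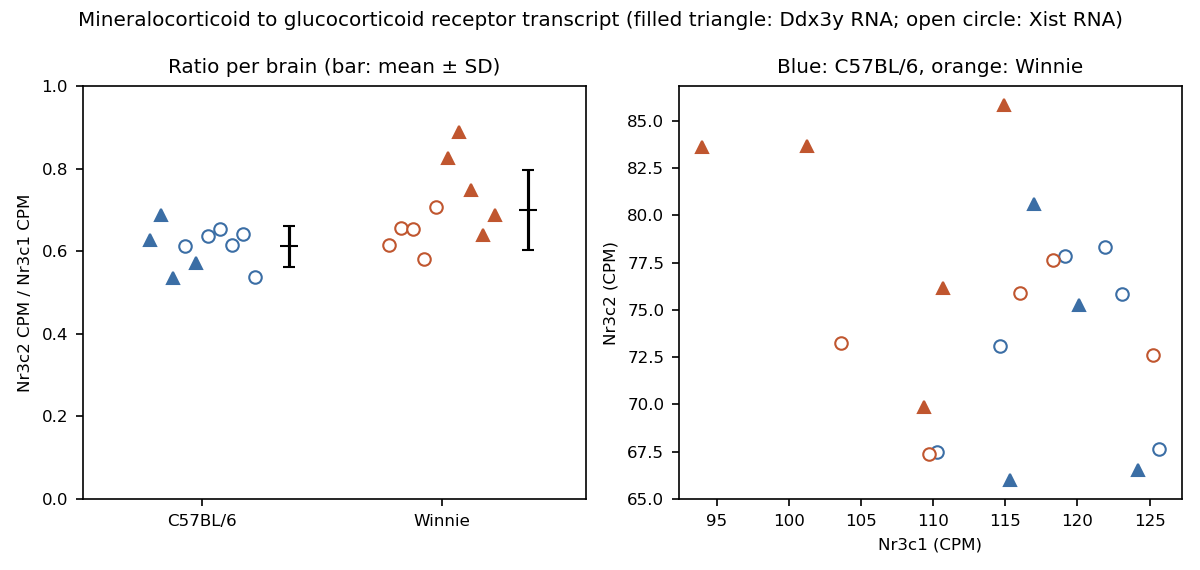
The left panel plots the ratio of *Nr3c2* CPM to *Nr3c1* CPM for each of 10 C57BL/6 (blue) and 10 *Winnie* (orange) brains, with mean ± SD, and the right panel plots *Nr3c2* CPM against *Nr3c1* CPM. The highest ratio is 0.890, in a *Winnie* brain, and the *Winnie* brains with *Ddx3y* RNA (filled triangles) average 0.758, above the 0.642 of those with *Xist* RNA (open circles).

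Markers of the hippocampus, where *Nr3c2* is most abundant, were summed beside the receptors. The sum of its 6 markers ran from 243 to 286 CPM in C57BL/6 and from 271 to 315 CPM in *Winnie*. Of these 6, 5 had a log2 fold change above 0, 0 passed the test, and none was at 0, the least abundant averaging 2.31 CPM. The log2 fold changes of the most abundant, *Wfs1* and *Prox1*, were 0.11 and 0.17, beside 0.05 for *Fibcd1* and -0.02 for *Lct*. The sum thus rests largely on a few markers. The part of these markers in the receptor values was not tested.

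Local steroid activation showed no difference past the test. *Hsd11b1* (ENSMUSG00000016194, chromosome 1, 193221634 to 193264075, minus strand) encodes the reductase of the endoplasmic reticulum that regenerates corticosterone from its inert keto form. Its lowest, median and highest values were 13.1, 16.6 and 20.2 CPM in C57BL/6 and 11.9, 16.2 and 18.3 CPM in *Winnie*. The ranges overlapped, with 8 *Winnie* brains below the C57BL/6 median. The log2 fold change was -0.07, with an interval from -0.22 to 0.08 and a limma FDR of 0.672.

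*H6pd* (ENSMUSG00000028980, chromosome 4, 149979475 to 150009023, minus strand) encodes the hexose-6-phosphate dehydrogenase that supplies this reductase with NADPH inside the endoplasmic reticulum. It ranged from 9.01 through a median of 9.74 to 10.7 CPM in C57BL/6 and from 7.69 through 9.57 to 11.4 CPM in *Winnie*. The *Winnie* brains spread to either side of the control range. The log2 fold change was -0.04, with an interval from -0.16 to 0.08 and a limma FDR of 0.783. At 147 to 235 reads a brain, this gene had the fewest reads of the 8, and *Hsd11b1* had 227 to 423.

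The co-chaperones carried the differences that passed the test. The RefSeq sequence immediately upstream of each gene's start is shown because both transcripts were lower and because co-chaperone genes are known targets of heat shock factors, whose elements are built of alternating GAA and TTC units. Capitals mark the match to GAANNTTC, searched with TTCNNGAA in the 250 bases before each RefSeq start. Both motifs are their own reverse complements, so a match counts for both strands. The sequences are GRCm38.p6, written 5′ to 3′ on the strand of the gene, from chr6:128438678-128438906 (minus strand) and chr10:128058732-128058953 (plus strand). Of each 250-base window, only the part outside the annotated gene is printed, 229 bases for *Fkbp4* and 222 for *Ptges3*. The printed sequences therefore end short of the RefSeq start.
Fkbp4: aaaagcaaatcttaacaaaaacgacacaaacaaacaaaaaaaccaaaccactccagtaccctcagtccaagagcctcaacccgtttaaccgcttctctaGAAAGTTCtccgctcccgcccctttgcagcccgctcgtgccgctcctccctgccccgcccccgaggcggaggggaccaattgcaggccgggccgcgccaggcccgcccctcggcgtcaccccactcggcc
Ptges3: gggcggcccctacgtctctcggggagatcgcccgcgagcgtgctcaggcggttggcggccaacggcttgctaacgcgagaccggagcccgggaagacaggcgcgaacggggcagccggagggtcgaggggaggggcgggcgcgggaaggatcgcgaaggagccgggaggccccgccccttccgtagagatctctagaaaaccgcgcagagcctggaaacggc
GAANNTTC occurred in the *Fkbp4* window at positions -151 to -144, counted from the RefSeq start and not from the end of the printed sequence. It also occurred in the window of *Nr3c2*, out of 6 members with an entry, and in 7.73% of 27025 genes. TTCNNGAA occurred in none of these 6 windows and in 8.11% of genes. A match describes letters and shows no bound factor.

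*Ptges3* (ENSMUSG00000071072, chromosome 10, 128058954 to 128077272, plus strand) encodes the co-chaperone p23, which binds HSP90 late in its cycle and stabilises the hormone-binding form of the receptor. Its lowest, median and highest values were 62.8, 71.1 and 80.4 CPM in C57BL/6 and 53.6, 58.9 and 67.0 CPM in *Winnie*. Every *Winnie* brain was below the C57BL/6 median, 7 were below every C57BL/6 brain, and 8 C57BL/6 brains were above every *Winnie* brain. The means were 70.6 ± 4.91 and 59.9 ± 5.02 CPM (SD, n = 10 each), and *Ptges3* fell by 15.2% in *Winnie*. The log2 fold change was -0.24 (SE 0.0473, interval -0.34 to -0.14, limma FDR 0.00866), and in order of p the gene stood at 43 among all genes. The call held without any single brain, with FDR between 0.00491 and 0.0214.

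*Fkbp4* (ENSMUSG00000030357, chromosome 6, 128429735 to 128438677, minus strand) encodes the immunophilin that links the receptor complex to dynein and aids its transport to the nucleus. Its lowest, median and highest values were 115, 122 and 143 CPM in C57BL/6 and 94.2, 114 and 119.9 CPM in *Winnie*. Again every *Winnie* brain was below the C57BL/6 median and 7 were below every C57BL/6 brain, while 6 C57BL/6 brains were above every *Winnie* brain. The means were 124 ± 8.32 and 109 ± 10.2 CPM (SD, n = 10 each), and *Fkbp4* fell by 12.2%. The log2 fold change was -0.19 (SE 0.0488, interval -0.29 to -0.09, limma FDR 0.0366).

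The call for *Fkbp4* was lost when any of 7 brains was left out, C57BL/6 replicates 3, 5 and 8 and *Winnie* replicates 2, 5, 8 and 9, with a limma FDR between 0.0521 and 0.0847 and a log2 fold change between -0.19 and -0.16. Its fold change was larger among brains with *Ddx3y* RNA than among those with *Xist* RNA, though not past the test. With genotype in the fit, brains with *Ddx3y* RNA differed from those with *Xist* RNA by 0.04 in log2 *Fkbp4* (limma FDR 0.870). Among brains with *Xist* RNA the mean was 119 ± 2.85 CPM in C57BL/6 (n = 6) and 111 ± 10.8 CPM in *Winnie* (n = 5), a log2 fold change of -0.10 with a limma FDR of 0.581. Among brains with *Ddx3y* RNA the means were 131 ± 7.96 (n = 4) and 107 ± 10.4 CPM (n = 5), a log2 fold change of -0.30 with a limma FDR of 0.0895. The limma test of the difference between these fold changes gave an unadjusted p of 0.0413 and an FDR of 0.836. An exact permutation test of the same difference, as used for the receptor ratio, gave p = 0.0586, not adjusted.

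*Ptges3* was lower in both kinds of brain without passing the test in either, with a log2 fold change of -0.18 among brains with *Xist* RNA (limma FDR 0.273) and -0.32 among those with *Ddx3y* RNA (limma FDR 0.0795). In all 8 genes the difference of the genotype effect between the kinds of brain had a limma FDR of at least 0.836. With *Ddx3y* as a covariate over all 20 brains, both co-chaperones passed the test, *Fkbp4* at an FDR of 0.0331 and *Ptges3* at 0.00714.

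The coactivators were slightly higher in *Winnie* and neither passed the test. *Ncoa2* (ENSMUSG00000005886, chromosome 1, 13139105 to 13374083, minus strand) encodes a coactivator of the p160 family that binds the ligand-binding domain of steroid receptors and brings in acetyltransferases. Its lowest, median and highest values were 114, 124 and 134 CPM in C57BL/6 and 123, 132 and 145 CPM in *Winnie*. In *Winnie*, 9 brains were above the C57BL/6 median, and 5 C57BL/6 brains were below every *Winnie* brain. The means were 122 ± 6.10 and 132 ± 6.50 CPM (SD, n = 10 each), a log2 fold change of 0.10 with an interval from 0.03 to 0.18 and a limma FDR of 0.110.

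*Ncoa1* (ENSMUSG00000020647, chromosome 12, 4247362 to 4477182, minus strand) encodes another coactivator of the same family. It ranged from 186 through a median of 194 to 204 CPM in C57BL/6 and from 189 through 198 to 213 CPM in *Winnie*. The ranges overlapped, with 8 *Winnie* brains above the C57BL/6 median. The log2 fold change was 0.03, with an interval from -0.03 to 0.10 and a limma FDR of 0.605. An antisense gene, *4921501I09Rik*, overlaps its exons in the annotation and was not analysed here.

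Members with the same role were then compared across brains after the mean of each genotype was subtracted, giving 4 pairs. *Fkbp4* and *Ptges3* varied together, with Pearson's r = 0.585 (permutation p = 0.00709, adjusted over the 4 pairs 0.0284) and Spearman's rho = 0.541 (permutation p = 0.0151, adjusted 0.0602). Without the 2 brains farthest from the median of *Fkbp4*, C57BL/6 replicate 5 and *Winnie* replicate 9, r was 0.431 (permutation p = 0.0751) over the other brains, and the relation no longer passed the test. With either of these brains left out alone, r was 0.490 (permutation p = 0.0344) or 0.534 (permutation p = 0.0190). *Ncoa1* and *Ncoa2* had r = 0.499 (permutation p = 0.0251, adjusted 0.0502) and rho = 0.418 (permutation p = 0.0679, adjusted 0.136), and r = 0.544 without the 2 farthest brains (permutation p = 0.0195).

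After adjustment *Ncoa1* and *Ncoa2* did not pass the test, and the other pairs showed no relation past it. *Nr3c1* and *Nr3c2* had r = -0.178 (permutation p = 0.457, adjusted 0.609) and rho = -0.0647 (permutation p = 0.787), and r was 0.0747 without the 2 farthest brains. *Hsd11b1* and *H6pd* had r = -0.0696 (permutation p = 0.768) and rho = -0.0226 (permutation p = 0.925), and r was 0.208 without the 2 farthest brains. Values of one library share its depth and scaling.

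**Figure D3:**
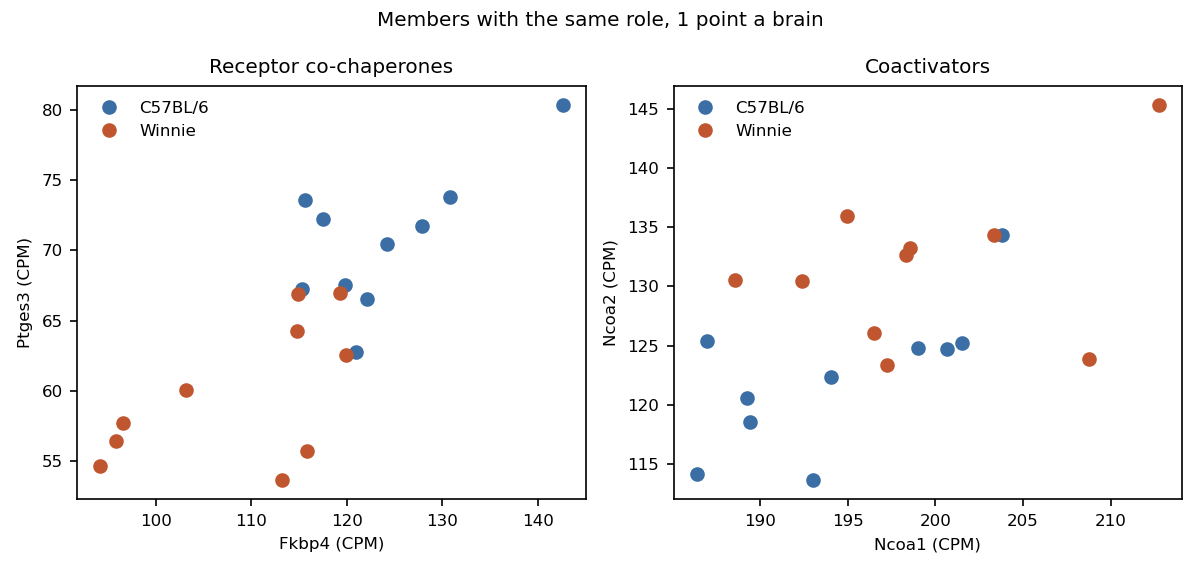
Each point is a brain, C57BL/6 in blue and *Winnie* in orange, with *Ptges3* CPM against *Fkbp4* CPM on the left and *Ncoa2* CPM against *Ncoa1* CPM on the right. The C57BL/6 brain at 143 CPM of *Fkbp4* and 80.4 CPM of *Ptges3* and the *Winnie* brain at 94.2 CPM of *Fkbp4* mark the ends of the left panel.

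The genes most like each member across the 20 brains were taken as those with the highest r after subtraction of the genotype mean, among 11976 genes with a mean of at least 5 CPM, as a description with no test. For the co-chaperones these were *Dnajb11* (r = 0.894), *Dexi* (0.851) and *Slc25a25* (0.812) for *Fkbp4*, and *Slc25a14* (0.810), *Actr3* (0.804) and *Rhbdl3* (0.790) for *Ptges3*. *Dnajb11* encodes a chaperone of the endoplasmic reticulum. For the receptors they were *Plekhm3* (0.769), *Eya3* (0.766) and *Gca* (0.764) for *Nr3c1*, and *Tshz2* (0.878), *Serpina3n* (0.832) and *Tspan18* (0.827) for *Nr3c2*.

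For the coactivators, *Kcnma1* (r = 0.850), *Pclo* (0.842) and *Prr14l* (0.837) led for *Ncoa2*, and *Cdc42bpa* (0.775), *Bptf* (0.765) and *Scn8a* (0.764) for *Ncoa1*. For *Hsd11b1* they were *Gltscr2* (0.731), *Zbtb48* (0.726) and *Sap30l* (0.716), and for *H6pd* *Qars* (0.742) and *Stt3a* (0.707).

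The rest of the HSP90 cycle that loads steroid receptors was represented by 15 other genes, of which 3 were lower and 0 higher at an FDR under 0.05, beside 1.01% of all genes called lower. Their median log2 fold change was -0.12, and 13 of 15 were below 0, beside 8437 of all 17211 genes. Genes of a list were measured in the same libraries, so their directions are not independent. *Dnaja1*, an HSP40 co-chaperone that hands clients to HSP70, ranged from 124 through a median of 135 to 145 CPM in C57BL/6 and from 106 through 119.9 to 136 CPM in *Winnie* (log2 fold change -0.19, limma FDR 0.0143). *Ahsa1*, the activator of the HSP90 ATPase, ranged from 76.7 through 81.3 to 91.7 CPM and from 62.0 through 73.5 to 77.6 CPM (-0.19, limma FDR 0.0168). *Stip1*, the adaptor between HSP70 and HSP90, ranged from 198 through 229 to 254 CPM and from 186 through 202 to 223 CPM (-0.16, limma FDR 0.0321).

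All 10 *Winnie* brains were below the C57BL/6 median for *Ahsa1* and *Stip1*, and 9 were for *Dnaja1*. The HSP90 genes themselves, *Hsp90aa1* at a log2 fold change of -0.12 (limma FDR 0.268) and *Hsp90ab1* at -0.06 (limma FDR 0.306), did not pass the test. The number lower was 2 without C57BL/6 replicate 5, 8 or 9 or *Winnie* replicate 2 or 9, and 2 to 4 over all brains left out in turn. Within each kind of brain by RNA, 0 of the 15 were called, with a median log2 fold change of -0.09 among those with *Xist* and -0.15 among those with *Ddx3y*. Of all 17211 genes, only 8 were called lower with *Xist* and 5 with *Ddx3y*, so 0 calls say little about this list.

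**Figure D4:**
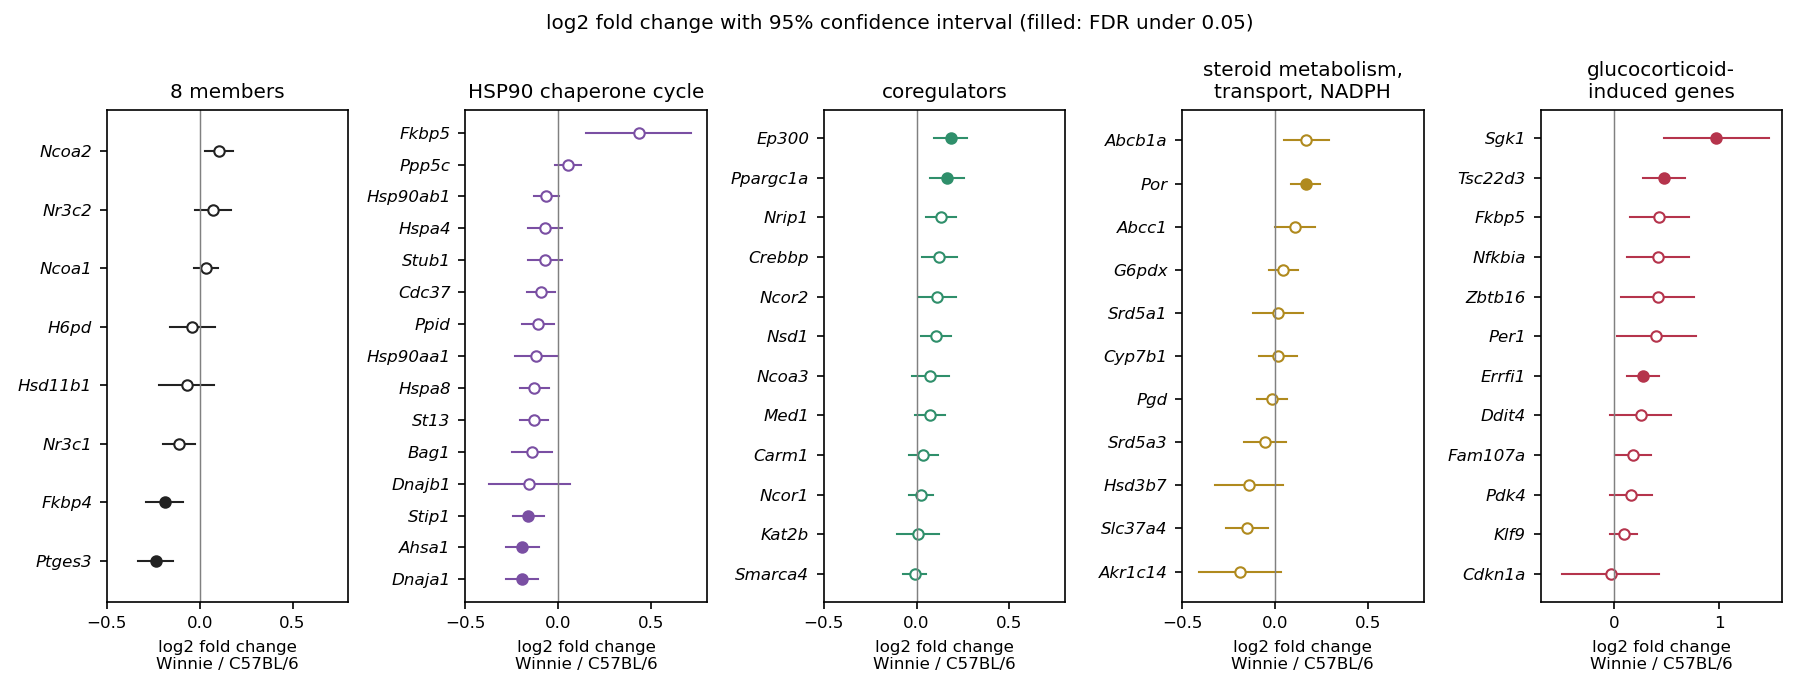
Log2 fold changes of *Winnie* over C57BL/6 on the log2(CPM + 0.5) scale are plotted with 95% confidence intervals for the 8 members and for the 4 wider lists, filled where the limma FDR is under 0.05. The 2 filled members, *Ptges3* at -0.24 and *Fkbp4* at -0.19, lie below 0 with 3 filled genes of the HSP90 cycle, and the glucocorticoid-induced genes, on a wider axis, lie mostly above 0.

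Of 12 further coregulators of nuclear receptors, 2 were higher and 0 lower, beside 1.52% of all genes called higher. Their median log2 fold change was 0.09, and 11 of 12 were above 0, beside 8774 of all 17211 genes. *Ep300*, the acetyltransferase that the p160 coactivators recruit, ranged from 86.6 through 96.1 to 113 CPM in C57BL/6 and from 103 through 113 to 120.4 CPM in *Winnie* (0.18, limma FDR 0.0222). *Ppargc1a*, a coactivator of metabolic genes, ranged from 52.8 through 60.1 to 63.3 CPM and from 58.4 through 66.7 to 76.9 CPM (0.17, limma FDR 0.0429). The number higher was 0 without C57BL/6 replicate 5 and lay between 0 and 3 over all brains left out in turn, with 1 call without any single one of C57BL/6 replicates 3, 4, 7, 8 and 9 and *Winnie* replicates 2, 3, 4, 6, 7 and 8. Within each kind of brain by RNA 0 were called, with medians of 0.08 (*Xist*) and 0.12 (*Ddx3y*). Of all 17211 genes, 45 were called higher with *Xist* and 0 with *Ddx3y*.

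Among 11 genes of steroid metabolism, steroid export and NADPH supply, 1 was higher and 0 lower, beside 1.52% and 1.01% of all genes, with a median log2 fold change of 0.02. Within each kind of brain by RNA 0 were called, beside 53 of all 17211 genes with *Xist* and 5 with *Ddx3y*. *Por*, the reductase that passes electrons from NADPH to microsomal cytochromes P450, ranged from 61.7 through 68.5 to 74.4 CPM in C57BL/6 and from 69.9 through 75.9 to 82.3 CPM in *Winnie* (0.17, limma FDR 0.0197). All 10 *Winnie* brains were above the C57BL/6 median. *Slc37a4*, the transporter that brings glucose-6-phosphate to *H6pd*, had a log2 fold change of -0.15 with a limma FDR of 0.126. *Hsd11b2*, the enzyme that inactivates corticosterone, was not analysed here.

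Genes that activated glucocorticoid receptors are known to induce were listed beside the receptor machinery. Of 12 such genes, 3 were higher and 0 lower, beside 1.52% of all genes called higher. Their median log2 fold change was 0.34, with 11 of 12 above 0, beside 8774 of all 17211 genes. *Tsc22d3*, which encodes the glucocorticoid-induced leucine zipper, ranged from 43.2 through 60.1 to 85.5 CPM in C57BL/6 and from 67.9 through 85.9 to 101.0 CPM in *Winnie* (0.48, limma FDR 0.0139). *Sgk1*, a serum- and glucocorticoid-induced kinase, ranged from 39.2 through 64.6 to 126 CPM and from 66.4 through 132 to 184 CPM (0.98, limma FDR 0.0374). *Errfi1*, an inhibitor of the epidermal growth factor receptor, ranged from 28.8 through 33.4 to 42.9 CPM and from 34.5 through 38.3 to 52.9 CPM (0.28, limma FDR 0.0393).

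All 10 *Winnie* brains were above the C57BL/6 median for each of these 3 genes. *Fkbp5*, the immunophilin that competes with *Fkbp4* for HSP90 and that is counted in both the chaperone and the induced list, ranged from 22.9 through 30.2 to 38.3 CPM in C57BL/6 and from 31.1 through 39.0 to 63.3 CPM in *Winnie* (0.43, limma FDR 0.0874). Its direction was thus opposite to that of *Fkbp4*, with 10 of 10 *Winnie* brains above the C57BL/6 median for *Fkbp5* and 10 of 10 below it for *Fkbp4*. The number of induced genes called higher was 1 without C57BL/6 replicates 3, 4, 5, 7, 8 or 9 or *Winnie* replicates 2, 3, 4 or 7 when left out one at a time, and 2 to 4 without any one other brain. Among brains with *Xist* RNA, 2 of the 12 were called higher, beside 45 of all 17211 genes. There 12 were above 0, with a median log2 fold change of 0.42. Among brains with *Ddx3y* RNA, 0 of all 17211 genes were called higher, so the 0 calls in this list say nothing about the induced genes. There 8 of the 12 were above 0 and 4 below, with a median of 0.13, and the difference between these medians was not tested.

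Cell type and region markers were summed in each brain, and no list was at 0 in any brain, although single markers were. A single abundant marker can carry a sum, so a sum above 0 does not show that its region was in the tissue. The 6 cerebellar markers summed to between 181 and 233 CPM in C57BL/6 and between 180.5 and 246 CPM in *Winnie*. The most abundant, *Calb1*, averaged 105 and 100 CPM, whereas *Pcp2* had medians of 0.562 and 0.508 CPM and *Gabra6* of 0.804 and 0.262 CPM. *Pcp2* ran from 0 to 5.02 CPM in C57BL/6 and from 0 to 1.02 CPM in *Winnie*. *Gabra6* ran from 0.125 to 7.44 CPM and from 0 to 1.395 CPM, and the other cerebellar markers were above 0 in every brain. The 6 neuronal markers summed to between 5591 and 6518 CPM in C57BL/6 and between 5714 and 6324 CPM in *Winnie*, the 6 microglial markers to between 241 and 279 CPM and between 222 and 296 CPM, and the 6 choroid plexus markers to between 722 and 1049 CPM and between 492.6 and 1002 CPM. In proportion to their level, the striatal markers spread widely between brains of the same group, from 197 to 747 CPM in C57BL/6 and from 182 to 724 CPM in *Winnie*. The 6 hypothalamic markers summed to between 178 and 243 CPM in C57BL/6 and between 162 and 268 CPM in *Winnie*. Of these, *Pmch* ran from 15.4 to 26.3 CPM and from 2.49 to 34.6 CPM. *Oxt* ran from 0.408 to 13.2 CPM and from 0 to 15.6 CPM, while *Sst* ran from 146 to 187 CPM and from 151 to 189 CPM. Of all markers listed, the endothelial *Cldn5* (-0.47, limma FDR 0.00331) and the meningeal *Slc22a6* (0.39, limma FDR 0.0216) passed the test. The other 5 endothelial markers were above 0, where *Cldn5* was below, and the median log2 fold change of all 6 was 0.09. The meningeal list had 5 of 6 markers above 0, with a median of 0.09. Their part in the values of the 8 genes was not tested.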

How the data were processed

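RNA was sequenced from the brain of 10 C57BL/6 and 10 *Winnie* mice. Reads were counted per gene with FeatureCounts in the RNAsik pipeline on GRCm38, and the authors deposited CPM made with Degust. The aligner and the strandedness of the counting are not given in the sources used here. All 20 samples were grouped by the genotype of their labels. The labels do not say which mice shared a litter, and p-values measure the spread between these samples. Low values of each sample were whole multiples of 1 read (100% within 0.1 read), and reads were recovered from that step, giving 16540303 to 23923769 reads a sample. The number of reads behind a value bears on its counting error only and does not measure the spread between mice.

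The genotypes were compared gene by gene on log2(CPM + 0.5) by a two-sided limma fit (version 3.58.1, R 4.3.3) with trend and robust variance and Benjamini-Hochberg adjustment over all 17211 genes. Fold changes on this scale understate the change of low genes. No filter on low values was applied beyond that of the authors, so all 8 members were tested. Single values were compared by two-sided permutation with 100000 resamples, or exactly in groups under 10. Alternatives were pseudocounts of 0.1 and 1, a filter on low values, other scalings, count tests on those reads by edgeR (4.0.16) and DESeq2 (1.42.0), sex covariates, a replicate block and each sample left out in turn. Brains with *Xist* or with *Ddx3y* RNA alone were analysed after seeing the data. Genes named are the 8 members, listed genes with an FDR under 0.05 or otherwise the smallest p, and the 3 genes most like each member, of which 1 is not reported here. *Fkbp5*, *Hsp90aa1*, *Hsp90ab1*, *Slc37a4*, *Cldn5*, *Slc22a6*, *Pcp2*, *Gabra6*, *Pmch*, *Oxt* and *Sst* were named after their values were seen. So were *Calb1*, *Wfs1*, *Prox1*, *Fibcd1* and *Lct*. The members and lists were chosen with earlier results of these data known. Coordinates are from GENCODE M21 and promoter sequences from RefSeq on GRCm38.p6, in which 6 of the 8 members had an entry. Scripts were tested on simulated data.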

Additional observations from a re-analysis of the deposited data

How the results depend on the processing

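*Ptges3* kept its direction and its call in all 9 planned settings over all 20 brains, with FDR from 0.000191 to 0.0178, and without any single brain. *Fkbp4* kept its direction, with FDR from 0.0063 to 0.0602, the highest under the replicate block. *Nr3c1* (0.0678 to 0.183), *Ncoa2* (0.0791 to 0.201) and the other 4 members never passed. Members called numbered 1 with the replicate block, 0 among brains with *Xist* RNA, 0 among those with *Ddx3y* RNA and 1 to 2 with a brain left out. All genes called at an FDR under 0.05 numbered 968 by DESeq2, 227 with the replicate block, 53 among brains with *Xist* RNA and 5 among those with *Ddx3y* RNA, where fewer samples entered, and 169 (without C57BL/6 replicate 5) to 694 (without C57BL/6 replicate 10) with a brain left out. At the stricter threshold DESeq2 called 10 and leaving out a brain gave 0 to 2. Replicate numbers did not pair the samples, since 2 of 10 same-numbered pairs had a correlation over 0.1 (range -0.293 to 0.151). The log2 receptor ratio differed by 0.058 among brains with *Xist* RNA. *Nr3c1* and *Nr3c2* correlated at 0.0932 in C57BL/6 alone, a reversed sign, at -0.315 in *Winnie* alone, at -0.336 under median-ratio scaling, and from -0.264 to -0.00798 with a brain left out. *Hsd11b1* and *H6pd* correlated at -0.217 under median-ratio scaling and from -0.195 to 0.132 with a brain left out, reversing without C57BL/6 replicate 8 (0.0278) or *Winnie* replicate 2 (0.132). *Fkbp4* and *Ptges3* correlated at 0.635 in C57BL/6 alone (permutation p = 0.0518) and 0.562 in *Winnie* alone (permutation p = 0.0949), with 10 brains each. Neither passed the test. With a brain left out, their correlation ran from 0.490 to 0.680. *Ncoa1* and *Ncoa2* had 0.334 in *Winnie* alone and 0.340 to 0.671 with a brain left out. This pair did not pass after adjustment over all 20 brains (permutation p adjusted 0.0502). Its unadjusted permutation p was also above 0.05 without C57BL/6 replicate 5 or 10 or *Winnie* replicate 8. In the HSP90 list, DESeq2 called 7 lower and 1 higher and the replicate block 1 lower, and the block called 0 coregulators and 2 induced genes higher. The cause of these changes was not tested.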
